A study of Mus musculus with 42 samples.

Results

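Odorant receptor (OR) RNA was compared between the dorsal and the ventral olfactory epithelium of unstimulated mice, for all 1087 intact ORs in the table of that comparison. Each of the 1087 ORs was counted in 3 dorsal and 3 ventral libraries, 6 of the 42 libraries of the series. The dorsal group was total RNA of dorsal olfactory epithelium, and the ventral group was total RNA of ventral olfactory epithelium. Both came from C57BL/6J mice at postnatal days 20 to 22 that received no odor. Both sexes were used in the study, and neither group carried a transgene or a deletion. The rest of the series is RNA captured on phosphorylated ribosomal protein S6 after exposure to acetophenone (ACT), the thiazoline TMT or no odor and was not analysed here. The tissue was dissected, and the libraries were made with a SMART-Seq v4 and Nextera XT protocol according to the methods of the study. The epithelia came from 3 mice, and the labels do not tie a library to a mouse.

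ORs are the membrane receptors through which olfactory sensory neurons detect odorants. A mature neuron transcribes a single OR allele, and its axon joins those of other neurons with the same OR in the olfactory bulb. Where in the epithelium a neuron can choose a given OR is restricted along a dorsal to ventral axis. Class I ORs resemble the receptors of fish, lie together in a single gene cluster on mouse chromosome 7 and are textbook receptors of the dorsal zone. Class II ORs are spread over many clusters and are found in dorsal and ventral zones. In a bulk library, fewer neurons that chose an OR and less RNA per neuron cannot be told apart.

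The upstream sequences of 6 ORs from the results below are shown, and no call rests on them. Olfr739 and Olfr740 on chromosome 14, and Olfr1162 and Olfr1163 on chromosome 2, are neighbours with proteins about 90% identical and opposite calls. Olfr653 had the most counts of any OR in the dorsal libraries, and Olfr536 had the most in the ventral libraries. Each run is the 250 bases before the annotated transcription start in GRCm38, written 5′ to 3′ on the strand of the gene. Capitals mark matches on either strand to CCCNNGGG, the core of the Olf/Ebf site, or to a homeodomain motif known from OR promoters, spelled TAATTA with the variants TAATTG or else TAATGA.
Olfr739: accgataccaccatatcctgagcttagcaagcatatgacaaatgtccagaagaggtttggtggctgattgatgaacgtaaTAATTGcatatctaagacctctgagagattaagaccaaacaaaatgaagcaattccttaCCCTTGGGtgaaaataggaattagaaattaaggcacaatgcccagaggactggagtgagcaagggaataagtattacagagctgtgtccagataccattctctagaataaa
Olfr740: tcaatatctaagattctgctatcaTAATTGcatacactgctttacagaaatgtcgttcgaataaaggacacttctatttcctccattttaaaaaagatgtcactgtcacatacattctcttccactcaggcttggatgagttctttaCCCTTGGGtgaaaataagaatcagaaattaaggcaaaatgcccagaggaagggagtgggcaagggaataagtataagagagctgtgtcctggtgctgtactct
Olfr1162: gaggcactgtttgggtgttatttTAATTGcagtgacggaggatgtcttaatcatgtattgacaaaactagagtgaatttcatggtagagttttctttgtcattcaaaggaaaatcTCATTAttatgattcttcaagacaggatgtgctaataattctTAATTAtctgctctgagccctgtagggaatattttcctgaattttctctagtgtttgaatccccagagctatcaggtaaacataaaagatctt
Olfr1163: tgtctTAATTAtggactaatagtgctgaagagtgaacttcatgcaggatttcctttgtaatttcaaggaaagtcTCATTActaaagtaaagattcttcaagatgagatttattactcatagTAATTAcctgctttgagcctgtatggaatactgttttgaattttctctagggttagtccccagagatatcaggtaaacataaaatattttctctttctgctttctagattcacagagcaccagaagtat
Olfr653: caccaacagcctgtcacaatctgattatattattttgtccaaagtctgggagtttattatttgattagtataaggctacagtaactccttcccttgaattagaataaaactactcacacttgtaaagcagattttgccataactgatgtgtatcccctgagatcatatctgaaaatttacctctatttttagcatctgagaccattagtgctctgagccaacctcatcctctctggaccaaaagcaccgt
Olfr536: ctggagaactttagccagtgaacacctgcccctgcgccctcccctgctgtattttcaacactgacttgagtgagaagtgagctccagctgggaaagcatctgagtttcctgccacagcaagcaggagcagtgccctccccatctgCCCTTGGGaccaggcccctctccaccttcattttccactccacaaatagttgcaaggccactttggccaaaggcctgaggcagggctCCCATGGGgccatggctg
The windows lie at chr14:50418376-50418625 and chr14:50445295-50445544 on the plus strand, chr2:88051130-88051379 and chr2:88071831-88072080 on the minus strand, chr7:104577064-104577313 on the plus strand and chr7:140507397-140507646 on the minus strand.

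OR counts ran from 164928 to 242123 in the dorsal libraries and from 155319 to 188471 in the ventral libraries, and 1007 to 1063 ORs had a count in each library. The ventral libraries resembled each other closely, with Pearson correlations of 0.963 to 0.966 over the 970 ORs with a mean of at least 20 counts. The dorsal libraries correlated at 0.803 to 0.905, and dorsal library 2 stood apart. Its correlations with the ventral libraries were -0.07 to 0.06, against -0.25 to -0.40 for dorsal libraries 1 and 3. ORs called higher in ventral tissue took 17.6% of the OR counts of dorsal library 2 (95% Wilson interval 17.4 to 17.8%), against 5.08% (4.99 to 5.16%) in dorsal library 1 and 3.35% (3.27 to 3.42%) in dorsal library 3. In dorsal library 2 these ORs were the highest of the dorsal group in 331 of 404 cases, which describes the libraries that made the calls and is no test. These intervals cover counting error only. No pair of libraries agreed within sampling noise, since the chi-square per degree of freedom over ORs was at least 4.48. Markers of other cell types and the zone markers Nqo1, Acsm4 and Ncam2 are not among the ORs of the table, so the labels were checked on ORs alone. The dorsal labels were matched by class I ORs and by Olfr160, and the ventral labels by Olfr1507 (a call lost without replicate 2), while Olfr17, listed as a ventral marker, did not pass the test.

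Most intact ORs differed between the tissues. In edgeR's quasi-likelihood test with Benjamini-Hochberg adjustment over the 1087 ORs, 407 ORs were higher in dorsal tissue and 404 were higher in ventral tissue, which is 37.4% and 37.2% of the ORs tested. Every dorsal library lay above every ventral library for 428 ORs (39.4%), and every ventral library lay above every dorsal library for 533 ORs (49.0%). The changes were large. Among the called ORs, 382 of the 407 dorsal ones had a log2 fold change of dorsal over ventral above 2, and 323 of the 404 ventral ones had one below -2. The median was 3.71 for the dorsal calls, or 3.69 with the 1 OR without a ventral count at the bound that 3 counts allow, and -2.96 for the ventral calls. The median over all 1087 ORs was -0.65, and it moved to -0.39 with DESeq size factors over the ORs, -1.07 with size factors over all genes and -1.24 without TMM. An OR near -0.65 therefore stood in the middle of the ORs, and directions close to 0 depend on the scaling. The dorsal count ranged between 340 and 424 when replicates or single libraries were left out. The ventral count ranged more widely. It was 205 without replicate 1, 201 without replicate 3 and, with no block, 249, 267 and 279 without ventral library 1, 2 and 3, and 295, 521 and 353 without dorsal library 1, 2 and 3. The even split depended on the scaling, since there were 389 dorsal and 487 ventral ORs with size factors over all genes, 378 and 482 without TMM, and 415 and 375 with DESeq size factors over the ORs.

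**Figure D1:**
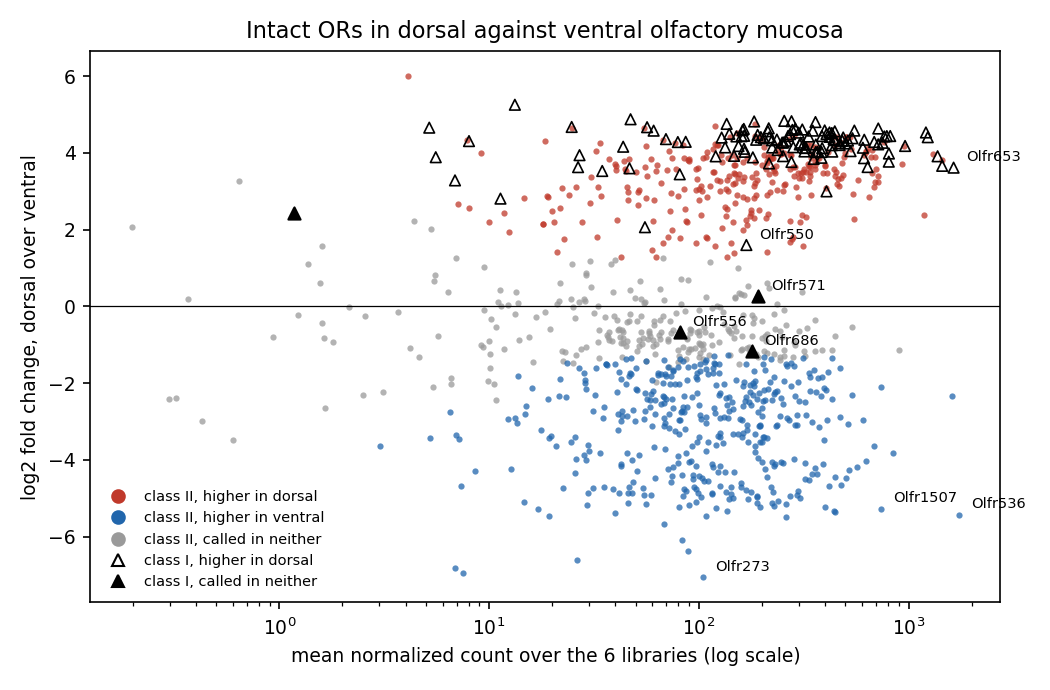
Each point is an intact OR, with its mean normalized count over the 6 libraries on a log scale (x axis) against its log2 fold change of dorsal over ventral (y axis). Class I ORs (triangles) form a narrow band with a median of 4.28, with 3 well-covered exceptions labelled, whereas class II ORs (dots) reach from Olfr273 at -7.06 upwards.

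Class I ORs were dorsal almost without exception. Class I is taken here as the ORs of the chromosome 7 class I cluster. Of these 123 ORs, 119 were higher in dorsal tissue, 0 were higher in ventral tissue and 4 were called in neither (edgeR). That is 96.7% of class I, beside 37.4% of all ORs called dorsal. At an unadjusted p under 0.05 the ventral count was still 0, while edgeR's likelihood ratio test called 1 class I OR, Olfr686, ventral and DESeq2 called 0. The band was narrow. The middle 50% of class I ORs lay between log2 fold changes of 4.02 and 4.46, and 93 of the 123 exceeded 4. Class II ORs called dorsal had a middle 50% of 2.84 to 3.86, and 51 of these 288 exceeded 4. Over the 116 class I ORs with a mean of at least 20 counts, the median normalized count was 564 in dorsal tissue and 30.2 in ventral tissue. Class I transcripts were not absent from ventral tissue, where 115 of the 123 had a count in every library.

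Class I ORs took 35.1% (95% Wilson interval 34.9 to 35.3%), 28.1% (27.9 to 28.3%) and 36.8% (36.6 to 37.0%) of OR counts in dorsal libraries 1, 2 and 3. They took 2.28% (2.21 to 2.35%), 3.73% (3.64 to 3.81%) and 3.68% (3.59 to 3.78%) in ventral libraries 1, 2 and 3. The groups did not overlap, and dorsal library 2 was the lowest of its group. The mean share was 33.4% ± 4.61 in dorsal and 3.23% ± 0.826 in ventral libraries (SD, n = 3 each), a 10.3-fold ratio. A two-sided exact permutation test gave p = 0.1, the smallest p that 3 against 3 libraries allow. Without dorsal library 2, an alternative chosen after seeing the data, the shares averaged 35.98% in dorsal and 3.23% in ventral libraries.

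**Figure D2:**
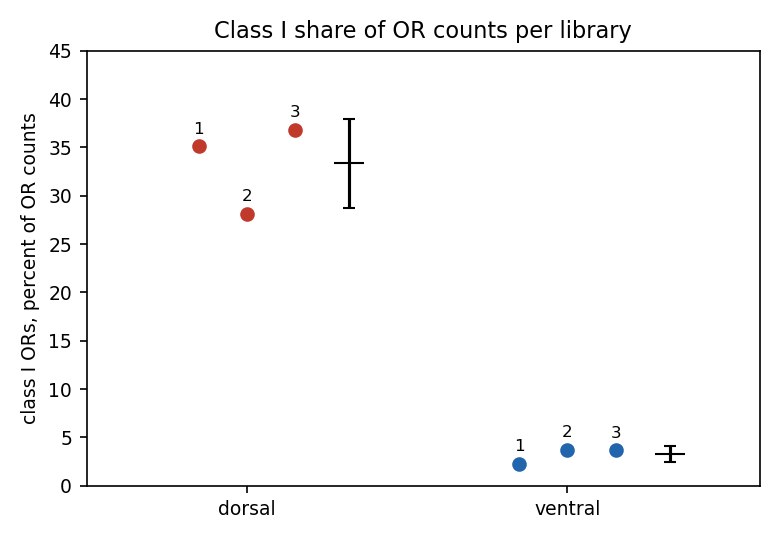
Share of OR counts on class I ORs in percent (y axis) in each dorsal and ventral library (points, numbered by replicate), with the mean and SD in black. The 3 dorsal libraries lie between 28.1% and 36.8%, all above the ventral libraries at 2.28% to 3.73%.

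Among ORs with a mean of at least 50 counts, the most strongly dorsal receptors were largely class I. Without that cut, the largest log2 fold change was 6.01 in class II and 5.25 in class I. By the naming rule, the 10 ORs with the highest log2 fold change among well-covered ORs were Olfr658, Olfr613, Olfr575, Olfr64, Olfr1512, Olfr671, Olfr918, Olfr641, Olfr618 and Olfr640, and all but Olfr1512 and Olfr918 are class I. Olfr658 had normalized counts of 512, 323 and 646 in dorsal libraries 1, 2 and 3, against 12, 21.3 and 17.3 in ventral libraries 1, 2 and 3. All 3 dorsal libraries were far above the ventral ones, and the log2 fold change was 4.83 ± 0.68 (SE, edgeR, adjusted p = 1.52e-04). Olfr640 was more abundant, at 1418, 880 and 1839 in the dorsal libraries against 35.2, 68.8 and 61.4 in the ventral libraries. Its log2 fold change was 4.63 ± 0.62. Olfr918, a class II OR of the chromosome 9 cluster, had 260, 138 and 293 in the dorsal libraries against 4.63, 5.74 and 19.2 in the ventral libraries. Its log2 fold change was 4.69 ± 0.68. In each of these ORs dorsal library 2 held the lowest dorsal value, and no ventral library came near it.

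The ORs with the most counts in dorsal tissue were Olfr653, Olfr145, Olfr689, Olfr592, Olfr959, Olfr67, Olfr615 and Olfr24, and all were called dorsal. Olfr653, a class I OR, had 2964, 2084 and 4059 normalized counts in dorsal libraries 1, 2 and 3, against 196, 279 and 251 in ventral libraries 1, 2 and 3. The groups were separate, with a log2 fold change of 3.61 ± 0.54 (SE, edgeR, adjusted p = 1.52e-04). It held 1.06 to 1.44% of the OR counts of a dorsal library, so that no single receptor dominated. The 10 most counted ORs made up 8.86 to 11.1% of OR counts in dorsal libraries and 9.51 to 10.8% in ventral libraries. Per kilobase of the longest annotated transcript, Olfr615 (669 normalized counts per kb) was level with Olfr653 (634) in dorsal tissue. Olfr24 stood out among the 8 by its ventral signal. It had 1887, 1590 and 2460 in the dorsal libraries against 312, 412 and 412 in the ventral libraries, a log2 fold change of 2.38 ± 0.51 (2.27 with an adjusted p of 0.0913 without replicate 3).

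The most strongly ventral receptors were all class II. The 10 ORs named by the rule were Olfr273, Olfr1241, Olfr325, Olfr1323, Olfr1263, Olfr224, Olfr536, Olfr728, Olfr1212 and Olfr1196. Olfr273 on chromosome 4 had 0, 4.75 and 0 normalized counts in dorsal libraries 1, 2 and 3, against 229, 134 and 260 in ventral libraries 1, 2 and 3. All its dorsal counts came from dorsal library 2, and the log2 fold change was -7.06 ± 1.05 (SE, edgeR, adjusted p = 1.53e-04). Olfr1263 had 2.89, 17.8 and 18.1 in the dorsal libraries against 510, 540 and 472 in the ventral libraries. Its groups were separate, with a log2 fold change of -5.50 ± 0.77. Its protein is 95.8% identical to that of Olfr1261, also called ventral, so that reads of 50 bases could be shared between them. The same holds for Olfr1196, which is 95.9% identical to Olfr1197, also ventral. Elsewhere in the text, Olfr1512, Olfr671, Olfr166, Olfr55 and Olfr288 each have a partner over 95% identical. Olfr728 had 5.77, 58.2 and 20.6 in the dorsal libraries against 873, 901 and 817 in the ventral libraries, and its log2 fold change was -5.36 ± 0.77. In Olfr1263 and Olfr728 the dorsal libraries differed from each other by several fold, whereas the ventral libraries were close. The ventral libraries of Olfr273 ranged from 134 to 260.

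Olfr536 on chromosome 7, outside the class I cluster, had the most counts of all ORs in ventral tissue. It had 12.5, 157 and 157 normalized counts in dorsal libraries 1, 2 and 3, against 3395, 3833 and 2866 in ventral libraries 1, 2 and 3. The log2 fold change was -5.43 ± 0.81 (SE, edgeR, adjusted p = 1.54e-04). Per kilobase of its longest annotated transcript it reached 795 in ventral and 25.7 in dorsal tissue. The other ORs among the 8 most counted in ventral tissue were Olfr15, Olfr166, Olfr1507, Olfr309, Olfr533, Olfr124 and Olfr55. Olfr15 had 410, 1471 and 213 in the dorsal libraries against 2753, 2436 and 2360 in the ventral libraries. Here dorsal library 2 reached more than the other dorsal libraries together, and the log2 fold change was -2.34 ± 0.63 (adjusted p = 0.00488). The call was lost in 7 of the 16 alternative fits, among them those without replicate 1 (adjusted p = 0.0552) and without replicate 3 (0.220). Olfr309 was the single OR of the 8 that did not pass the test. It had 569, 747 and 405 in the dorsal libraries against 1186, 1160 and 1342 in the ventral libraries, and its log2 fold change of -1.14 ± 0.51 had an adjusted p of 0.0568. It passed in 7 of the 16 alternative fits, including no replicate block (adjusted p = 0.0178), while Olfr55 lost its ventral call in 5.

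**Figure D3:**
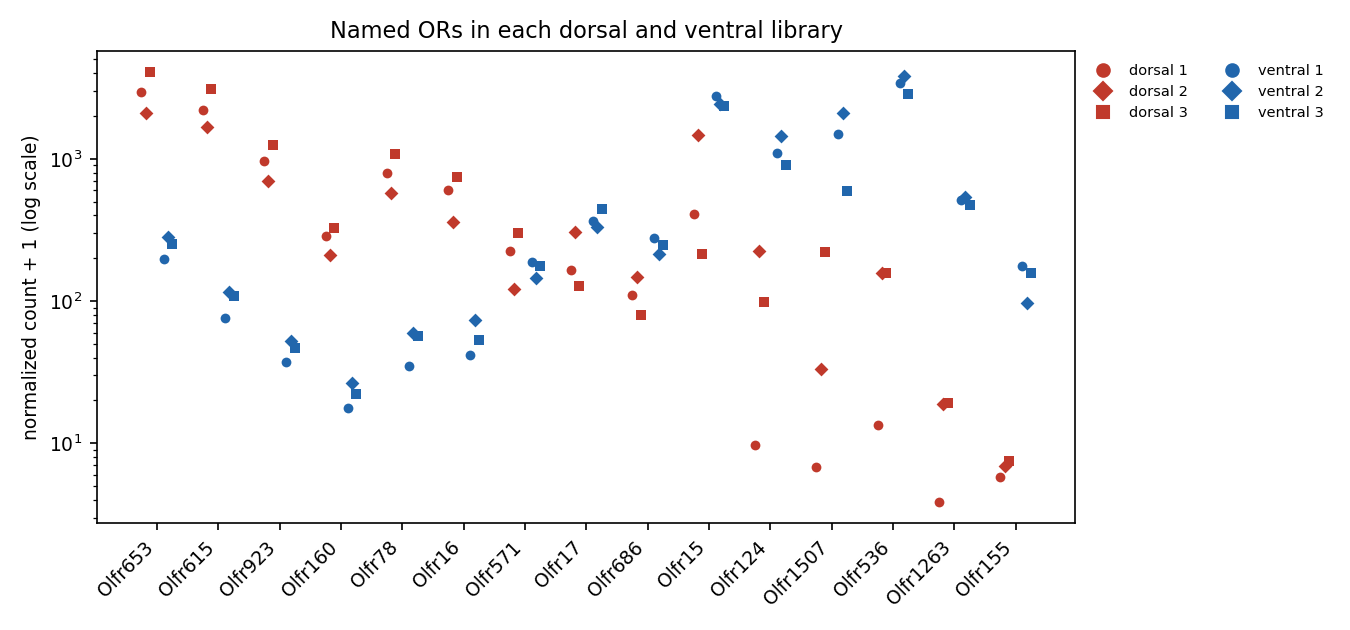
Normalized counts plus 1 on a log scale (y axis) of 15 named ORs (x axis) in the 3 dorsal (red) and 3 ventral (blue) libraries, with a marker shape for each replicate number. Dorsal ORs such as Olfr653 have tight groups, Olfr571, Olfr17 and Olfr686 lie close together in both tissues, and ventral ORs such as Olfr1507 differ between the dorsal libraries.

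Receptors with a known ligand or mouse line were looked up next. Of the 27 on this list, 10 were higher in dorsal tissue, 13 were higher in ventral tissue and 4 were called in neither, or 37.0% dorsal and 48.1% ventral beside 37.4% and 37.2% of all ORs. Olfr160 (M72), an acetophenone receptor used in gene-targeted mice, had 286, 211 and 324 normalized counts in dorsal libraries 1, 2 and 3, against 16.7, 25.4 and 21.1 in ventral libraries 1, 2 and 3. Its groups were far apart (log2 fold change 3.69 ± 0.61 SE, edgeR, adjusted p = 1.90e-04). Olfr151 (M71), its close relative, was sparse, with 40 counts over the dorsal and 2 over the ventral libraries. The ratio of these sums was 25.2-fold, with a counting interval of 6.53 to 215, and its dorsal call was lost without replicate 1 (adjusted p = 0.0762). The annotation of the study reassigned an Olfr151 model to Olfr160, which touches how reads are split between them. Olfr923, the ACT receptor for which the study made a knock-in mouse, had 956, 698 and 1242 in the dorsal libraries against 36.1, 51.6 and 46.1 in the ventral libraries. The log2 fold change of Olfr923 was 4.41 ± 0.61. Olfr983, another OR that responds to ACT, had 55.8, 36.8 and 43.8 in the dorsal libraries against 75.9, 60.6 and 73.9 in the ventral libraries, and was called in neither (-0.64 ± 0.53, adjusted p = 0.286).

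Dorsal receptors of the list covered several kinds of ligand. Olfr78 and Olfr558, class I receptors for short-chain fatty acids, had log2 fold changes of 4.03 ± 0.61 and 3.0 ± 0.58 (SE, edgeR). Olfr544, a class I receptor for azelaic acid, and Olfr545 (S50), a class I receptor for dicarboxylic acids, had 3.63 ± 0.57 and 3.76 ± 0.61. Olfr78 had 789, 572 and 1087 normalized counts in dorsal libraries 1, 2 and 3, against 34.2, 58.2 and 55.7 in ventral libraries 1, 2 and 3. Among class II, Olfr16 (MOR23), a lyral receptor, had 600, 356 and 743 in the dorsal libraries against 40.7, 72.9 and 51.8 in the ventral libraries. Its log2 fold change was 3.34 ± 0.63. Olfr73 (mOR-EG), the eugenol receptor, and Olfr1019, a receptor for TMT, were dorsal by 3.89 ± 0.64 and 3.84 ± 0.60. All 7 had dorsal values above every ventral value.

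The cluster of 36 ORs on chromosome 14 that holds Olfr1507 had 11 dorsal and 22 ventral calls. Olfr1512 of this cluster was dorsal at 4.76 ± 0.69 (SE, edgeR). On the ventral side stood 3 ORs next to the H element, a long-range enhancer on chromosome 14. Olfr1507 (MOR28), its best-known target, had 5.77, 32.1 and 220 normalized counts in dorsal libraries 1, 2 and 3, against 1503, 2082 and 593 in ventral libraries 1, 2 and 3. The groups were separate, but dorsal library 3 was high and ventral library 3 was low for their groups. The log2 fold change was -5.27 ± 1.21 (SE, edgeR, adjusted p = 0.00180). Olfr1508, the next OR, had 11.5, 24.9 and 91.6 in the dorsal libraries against 656, 923 and 371 in the ventral libraries. Olfr1509, a receptor for the urinary thiol ether MTMT, had 1.92, 15.4 and 19.3 in the dorsal libraries against 168, 243 and 106 in the ventral libraries. The 3 ORs thus shared the order of their libraries, with dorsal library 3 the highest dorsal and ventral library 2 the highest ventral one. Their log2 fold changes were -4.37 ± 0.86 for Olfr1508 and -4.02 ± 0.80 for Olfr1509. These 3 calls were lost without replicate 2. Without it the log2 fold change was -4.01 for Olfr1507 (adjusted p = 0.190), -3.59 for Olfr1508 (0.0751) and -3.82 for Olfr1509 (0.0586), and without dorsal library 2 and no block it was -3.64 for Olfr1507 (0.0992).

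The OR37 receptors, which are known for their expression in a patch of the central turbinates, were also ventral. Olfr155 (OR37A) had 4.81, 5.94 and 6.45 normalized counts in dorsal libraries 1, 2 and 3, against 175, 95.9 and 156 in ventral libraries 1, 2 and 3 (log2 fold change -4.58 ± 0.68 SE, edgeR, adjusted p = 1.52e-04). Olfr157 (OR37C) had 0, 5.94 and 6.45 in the dorsal libraries against 111, 74.6 and 156 in the ventral libraries. Olfr156 (OR37B) had 2 counts over the dorsal libraries and 126 over the ventral libraries, so that ventral exceeded dorsal tissue 50.1-fold with a counting interval of 13.6 to 418. In all 3 the dorsal libraries were near 0. Olfr124 (SR1), the broadly tuned receptor abundant in the septal organ, had 8.66, 222 and 98.0 in the dorsal libraries against 1101, 1454 and 896 in the ventral libraries. Its log2 fold change was -4.03 ± 0.83, and its dorsal values spread over more than a 10-fold range, with dorsal library 2 the highest.

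Other ventral receptors of the list differed less. Olfr2 (I7), the octanal receptor, had 9.62, 26.1 and 11.6 normalized counts in dorsal libraries 1, 2 and 3, against 133, 124 and 108 in ventral libraries 1, 2 and 3 (log2 fold change -3.05 ± 0.63 SE, edgeR, adjusted p = 7.13e-04). Olfr1440 (MOR215-1), a muscone receptor, had 171, 393 and 76.1 in the dorsal libraries against 953, 733 and 881 in the ventral libraries, a log2 fold change of -2.30 ± 0.65 and a call lost in 2 of the 16 alternative fits. The TMT receptor Olfr1019 was dorsal, as given above. Of 3 other TMT-responsive ORs of the list, Olfr1297 and Olfr165 were ventral, at -1.85 ± 0.64 and -1.50 ± 0.63. Olfr1395 did not pass (-1.13 ± 0.56, adjusted p = 0.0820). The call of Olfr165 was near the threshold (adjusted p = 0.0468) and was lost in 10 of the 16 alternative fits, among them no replicate block (0.0638) and DESeq2 (0.110). Olfr1297 lost its call in 5 fits, and Olfr1395 passed in 5, among them no replicate block (0.0242). Olfr17 (P2), used for axon tracing, had 165, 303 and 126 in the dorsal libraries against 362, 332 and 439 in the ventral libraries. Its groups were separate but dorsal library 2 came close to ventral library 2, and the test gave -1.02 ± 0.58 (adjusted p = 0.127). The adjusted p for Olfr17 was 0.0252 without replicate 2, 0.00101 without dorsal library 2 and no block, and 0.0496 without TMM. Olfr288 had at most 18.2 normalized counts in a library, its groups overlapped, and its direction turned in 5 of the alternatives, while it was called dorsal without ventral library 3 and no block (log2 fold change 5.33, adjusted p = 0.0256).

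The ORs of the class I cluster that were not dorsal are few and were examined one by one. Olfr686 had 109, 147 and 78.7 normalized counts in dorsal libraries 1, 2 and 3, against 275, 213 and 248 in ventral libraries 1, 2 and 3. Every ventral library was above every dorsal library, and the log2 fold change was -1.17 ± 0.57 (SE, edgeR, adjusted p = 0.0747). The class I ORs on both sides of it in the cluster were dorsal, as the plot of ORs in chromosomal order shows. Olfr686 was called ventral in 6 of the 16 alternative fits, with adjusted p of 0.0241 with size factors over all genes, 0.0263 without TMM, 0.0496 in the likelihood ratio test, 0.0246 with no replicate block, 0.0173 without replicate 2 and 3.64e-04 without dorsal library 2 and no block. Olfr556 had 57.7, 57.0 and 73.5 in the dorsal libraries against 99.9, 99.1 and 101 in the ventral libraries. The groups were separate and tight, yet the log2 fold change of -0.68 ± 0.55 (adjusted p = 0.271) is close to the median of all ORs. Olfr571 had 223, 120 and 302 in the dorsal libraries against 188, 143 and 175 in the ventral libraries. These groups overlapped, and the log2 fold change of 0.26 ± 0.56 (adjusted p = 0.686) turned negative without TMM, with size factors over all genes and without replicate 3, while Olfr571 was called dorsal without dorsal library 2 and no block (0.64, adjusted p = 0.0485). The fourth, Olfr663, had 6 counts over the dorsal and 1 over the ventral libraries and could not be judged.

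OR gene clusters differed in how their members were divided. With neighbouring ORs joined when their starts were less than 1 Mb apart, 1082 ORs fell into 49 clusters in GRCm38, of which 34 held at least 3 ORs. Of these 34, 19 had calls in both directions, 2 had dorsal calls alone, 12 had ventral calls alone and 1 had no call. The class I cluster (chromosome 7, 102.48 to 105.37 Mb, 123 ORs) and a group of 4 ORs on chromosome 11 were the ones with dorsal calls alone. The largest cluster with ventral calls alone lies on chromosome 2 (111.23 to 112.16 Mb), where 32 of 36 ORs were ventral. Another on chromosome 16 (58.76 to 59.36 Mb) had 17 of 26. On chromosome 1 the 8 ORs at 92.48 to 92.62 Mb and on chromosome 7 the 8 ORs at 6.44 to 6.57 Mb were all ventral. The chromosome 9 cluster (37.71 to 40.19 Mb), which holds Olfr160, Olfr151 and Olfr923, was mainly dorsal, with 61 dorsal and 13 ventral calls among 95 ORs. The other chromosome 9 cluster of 35 ORs was mostly uncalled, with 4 dorsal and 8 ventral ORs and 23 in neither. These shares stand beside 37.4% dorsal and 37.2% ventral over all ORs.

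**Figure D4:**
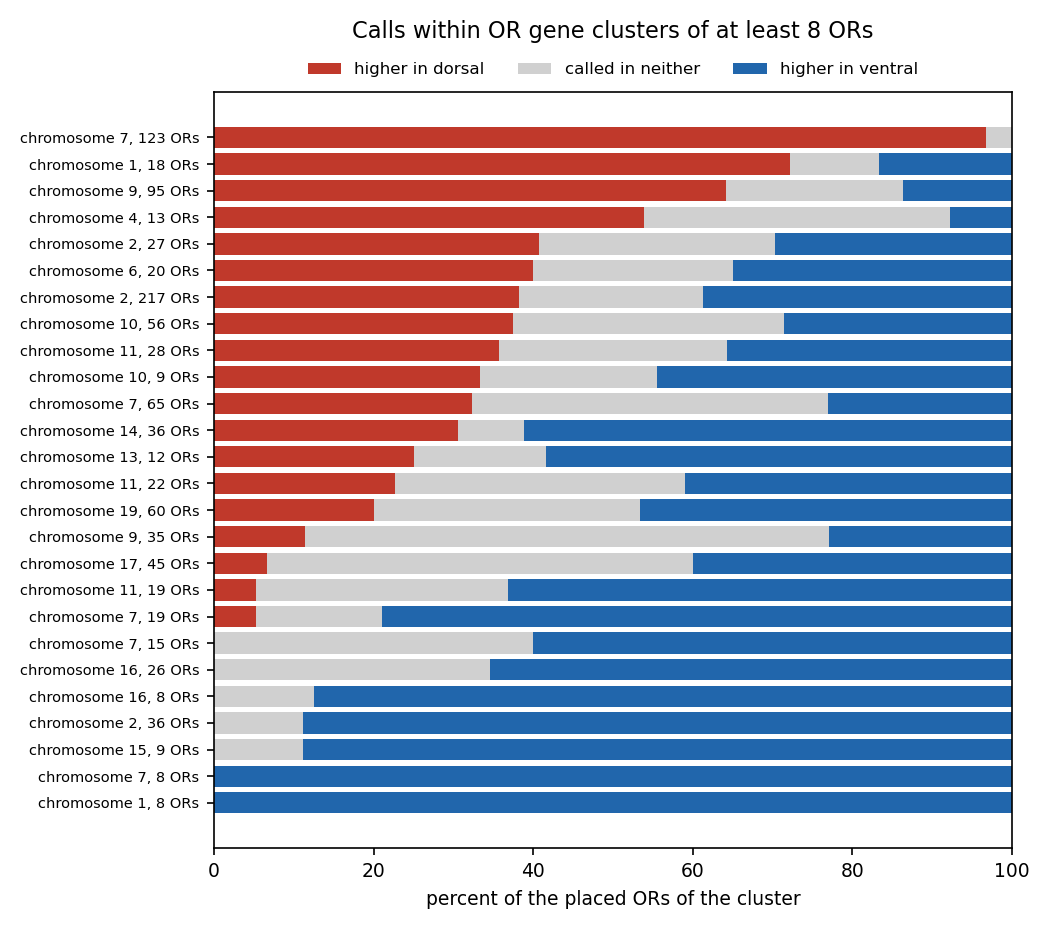
Percent of the placed ORs (x axis) called higher in dorsal tissue, in neither or higher in ventral tissue in each OR gene cluster of at least 8 ORs (y axis, by chromosome and number of ORs). The class I cluster of 123 ORs is 96.7% dorsal, the chromosome 2 cluster of 217 ORs is split, and the lowest 7 clusters hold no dorsal call.

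Neighbouring ORs were mostly called in the same direction, and mixed clusters held runs of 1 direction. Over all clusters, mixed or not, both ORs were called in 633 pairs of neighbours. Of these, 569 (89.9%) were called in the same direction and 64 in opposite directions. All 114 such pairs in class I agreed, and in class II 455 of 519 (87.7%) did. Pairs in clusters with calls in 1 direction alone agree by definition, so these shares are not values for mixed clusters. Across neighbouring pairs the log2 fold changes had a Pearson correlation of 0.75 (1033 pairs). It was 0.68 in class II (911 pairs) and 0.18 in class I (122 pairs). The pairs share the 6 libraries and often share sequence, so this is a description. The largest cluster, 217 ORs on chromosome 2, held 83 dorsal and 84 ventral calls in 22 runs. Its longest dorsal run was 37 called ORs, spanning 703 kb between Olfr1019 and Olfr1079, and its longest ventral run was 62 called ORs, spanning 1884 kb between Olfr1178 and Olfr1271. The switch was sharp. Olfr1176, the last dorsal OR before that run, had 1544, 1001 and 1817 normalized counts in dorsal libraries 1, 2 and 3, against 50.0, 91.0 and 82.6 in ventral libraries 1, 2 and 3. Olfr1178, 45.01 kb away, had 0, 7.13 and 19.3 in the dorsal libraries against 203, 221 and 145 in the ventral libraries. Their log2 fold changes were 4.29 ± 0.60 and -4.87 ± 0.97 (SE, edgeR), the largest opposite difference between neighbours among the 12 mixed clusters of at least 20 ORs. The call of Olfr1178 was lost without replicate 2 (log2 fold change -4.48, adjusted p = 0.0774).

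**Figure D5:**
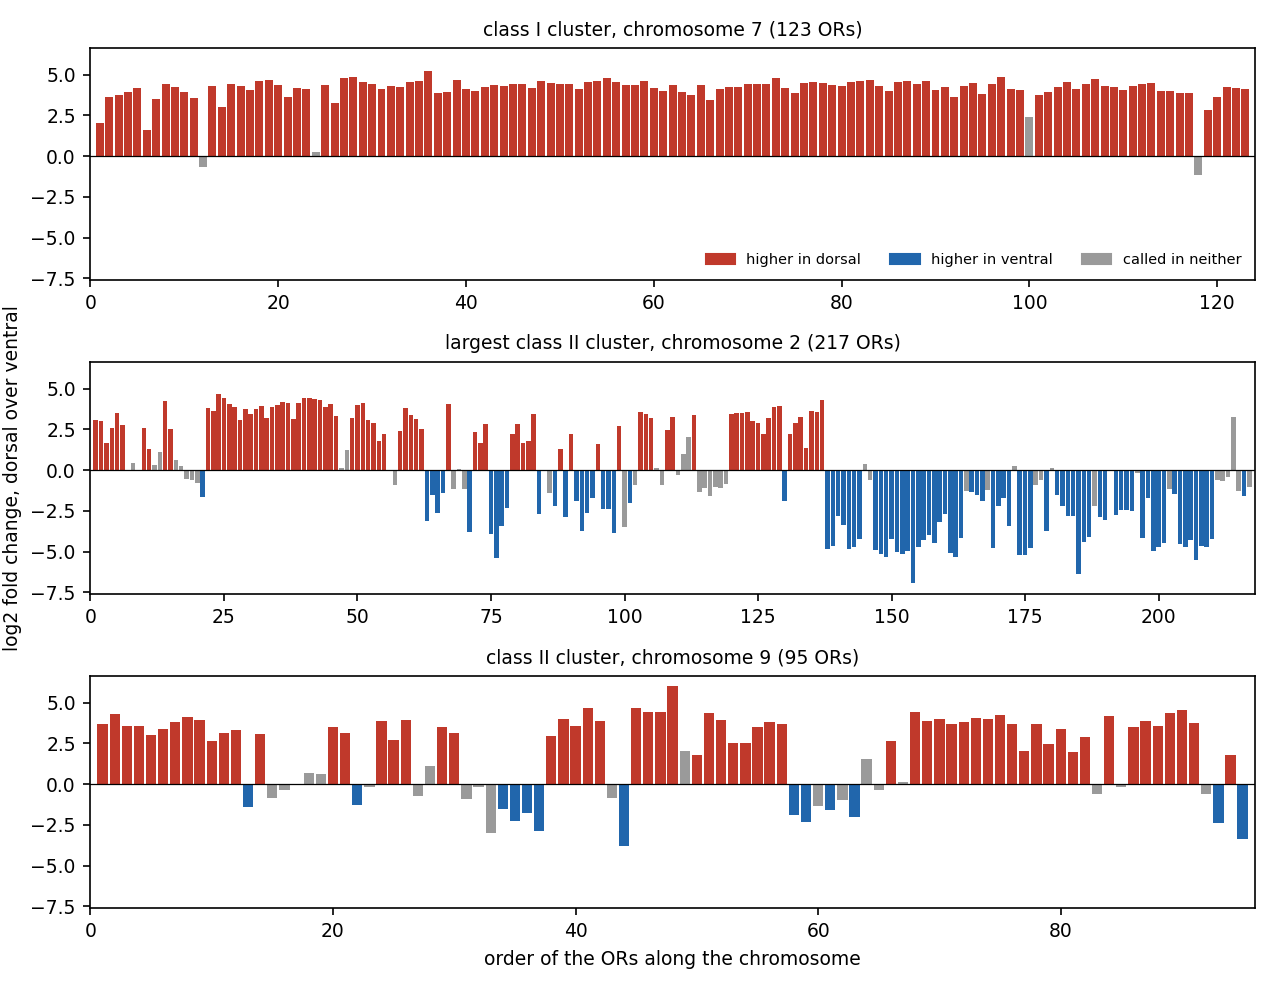
Log2 fold change of dorsal over ventral (y axis) of each OR in its order along the chromosome (x axis) for the class I cluster and 2 class II clusters, coloured by call. Class I is dorsal throughout but for 4 ORs. The calls of the chromosome 2 cluster form 22 runs, with the largest opposite difference between neighbours at Olfr1176 and Olfr1178.

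In the 12 mixed clusters of at least 20 ORs, the neighbours with the largest opposite difference lay 10.8 to 173 kb apart. Olfr743 and Olfr744 on chromosome 14 lie 79.9 kb apart and had log2 fold changes of -4.95 ± 0.90 and 3.84 ± 0.71 (SE, edgeR). Olfr743 had 1.92, 11.9 and 34.8 normalized counts in dorsal libraries 1, 2 and 3, against 403, 424 and 263 in ventral libraries 1, 2 and 3. Without replicate 2 the call of Olfr743 was lost (log2 fold change -4.47, adjusted p = 0.0564). Olfr744 had 425, 245 and 551 in the dorsal libraries against 17.6, 45.9 and 24.0 in the ventral libraries. On chromosome 9, Olfr921 and Olfr922 lie 35.6 kb apart at -3.77 ± 0.73 and 4.64 ± 0.67. Among the sharpest pairs of the 12 mixed clusters of at least 20 ORs, the closest was Olfr132 and Olfr133 on chromosome 17. They had 10.8 kb between them and log2 fold changes of -2.05 ± 0.61 and 2.29 ± 0.59. Both calls were lost without replicate 1 (adjusted p = 0.139 and 0.0779) and without replicate 3 (0.150 and 0.104). Olfr133 shares 95.8% protein identity with Olfr134, which was also dorsal.

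Sequence families followed the same division. OR names of the MOR system give a family number by protein similarity, and 70 class II families had at least 5 intact members. Of these, 17 had dorsal calls alone, 27 had ventral calls alone and 26 had both, against a background of 37.4% dorsal and 37.2% ventral calls over all ORs. In 2 of the 17 and 2 of the 27 a single member was called. All 10 members of family 224 were dorsal, with a median log2 fold change of 3.89. All 10 of family 225 were ventral, with a median of -4.69, as were all 10 of family 253, with a median of -3.13. Family 256, to which the largest number of class II ORs belong, was divided, with 8 dorsal and 26 ventral ORs and 14 in neither among 48. Family 171 had 24 dorsal, 4 ventral and 8 uncalled ORs among 36. Families of 1 cluster share both sequence and position, and the 2 were not separated here.

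Closest paralogues usually went the same way. Each OR was set beside its closest paralogue by global protein alignment. Of 411 closest pairs up to 95% identical in which both ORs were called, 376 (91.5%) agreed and 35 were opposite. The share in the same direction was 77.8% of 9 pairs at up to 50% identity, 84.0% of 50 at 50 to 60% and 87.5% of 72 at 60 to 70%. It was 94.4% of 89 at 70 to 80%, 93.7% of 111 at 80 to 90% and 95% of 80 at 90 to 95%. In class II alone, 310 of 345 pairs up to 95% identical agreed (89.9%). There the share was 60% of 5 pairs at up to 50%, 77.1% of 35 at 50 to 60% and 85.25% of 61 at 60 to 70%. Above 95% identity, 47 of 49 pairs agreed, but reads of 50 bases could be shared there and these pairs are uncertain. In all, 154 ORs had such a near-identical partner, of which 56 (36.4%) were called dorsal and 59 (38.3%) ventral, beside 37.4% and 37.2% of all ORs. The number of opposite pairs depended on the libraries. It was 8 without replicate 1 and 5 without replicate 3, and with no block it was 16, 19 and 20 without ventral library 1, 2 and 3, 22 without dorsal library 1 and 59 without dorsal library 2.

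Opposite pairs were named up to 95% identity and with a mean of at least 20 counts for each OR. The most alike of these were Olfr1162 and Olfr1163, which share 90.5% of their protein sequence and lie 18.7 kb apart on chromosome 2. Olfr38 and Olfr452, at 91.8% identity, also had opposite calls but were not among the named pairs. Olfr1162 had 1179, 742 and 1534 normalized counts in dorsal libraries 1, 2 and 3, against 41.6, 95.9 and 89.3 in ventral libraries 1, 2 and 3, a log2 fold change of 3.95 ± 0.62 (SE, edgeR, adjusted p = 1.54e-04). Olfr1163 was much sparser, with 8.66, 19.0 and 2.58 in the dorsal libraries against 30.5, 31.1 and 38.4 in the ventral libraries. Its groups were separate and its log2 fold change was -1.89 ± 0.70 (adjusted p = 0.0269), but its call was lost in 7 of the 16 alternative fits, among them DESeq2 (adjusted p = 0.0660) and the fits without replicate 1 (0.135) and without replicate 3 (0.227). Olfr739 was dorsal while its neighbours Olfr740, Olfr741, Olfr742 and Olfr743, at 87.1 to 90.4% identity, were ventral. It had 427, 334 and 552 in the dorsal libraries against 117, 125 and 126 in the ventral libraries, and a log2 fold change of 1.81 ± 0.56 (adjusted p = 0.0103). Olfr740, 17.7 kb from it, had 16.4, 102 and 16.8 in the dorsal libraries against 389, 339 and 343 in the ventral libraries. The log2 fold change of Olfr740 was -3.54 ± 0.76, and that of Olfr742 was -4.89 ± 0.86. The call of Olfr739 was lost without TMM (adjusted p = 0.0540), with size factors over all genes (0.0523), without replicate 1 (0.113) and without replicate 3 (0.221), and its direction was kept in each. Olfr888 and Olfr887 on chromosome 9, at 87.6% identity, were the remaining named pair, with log2 fold changes of 3.07 ± 0.64 and -1.39 ± 0.58. The call of Olfr887 was lost in 7 of the 16 alternative fits, with adjusted p up to 0.331.

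The upstream windows shown above of these pairs were alike but not identical. Aligned over 250 bases, those of Olfr1162 and Olfr1163 were 64.8% identical and those of Olfr739 and Olfr740 were 64.4% identical. Over closest pairs between 80 and 95% protein identity with both windows annotated, the median was 56.4% in 11 pairs with opposite calls and 55.6% in 162 pairs with the same call. Both Olfr739 and Olfr740 have a CCCNNGGG and a TAATTG match in capitals, and both Olfr1162 and Olfr1163 have TAATTA and TAATGA matches. The windows of Olfr653 and Olfr536 hold no homeodomain match, and that of Olfr536 holds CCCNNGGG.

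Homeodomain motifs were less frequent before class I ORs than before either group of class II ORs, with no test made. Windows of 250 bases before the annotated start were read for 1009 ORs. At least 1 homeodomain motif (TAATTA or its variant TAATTG or its variant TAATGA) occurred on either strand in 44 of 113 class I windows (38.9%), in 189 of 263 class II dorsal windows (71.9%), in 255 of 397 class II ventral windows (64.2%) and in 164 of 236 class II windows called in neither (69.5%). Over all ORs the share was 64.6%, and over the windows of 21853 protein-coding genes it was 17.9%. The start was that of the longest coding transcript with a 5′ UTR for ORs, but the most upstream coding transcript for the protein-coding genes. No GC content is given for the protein-coding windows, so base composition was not set beside this comparison. CCCNNGGG occurred in 17.7% of class I, 16.4% of class II dorsal and 12.1% of class II ventral windows, against 14.5% of all OR windows and 13.9% of all protein-coding windows. The median GC content was 40.8% in class I, 36.8% in class II dorsal and 37.6% in class II ventral windows. These are letter matches only, and TAATTA and TAATTG share their first 5 letters.

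The remaining 276 ORs were called in neither tissue, and 73 of them had a mean under 20 counts, while 203 were better covered. Of the better covered ones, 139 had an absolute log2 fold change under 1. Every ventral library was above every dorsal library for 132 of the 276 (47.8%), beside 49.0% of all ORs, and the reverse held for 22 (7.97%), beside 39.4% of all ORs. The 8 with the most counts were Olfr309, Olfr523, Olfr332, Olfr239, Olfr393, Olfr693, Olfr851 and Olfr786, and all had log2 fold changes below 0, on a scale whose median over all ORs was -0.65. Olfr309, Olfr239, Olfr393, Olfr786 and Olfr851 passed the test as ventral in 6 or 7 of the 16 alternative fits and Olfr332 in 2. Olfr523 had 451, 451 and 420 normalized counts in dorsal libraries 1, 2 and 3, against 651, 643 and 611 in ventral libraries 1, 2 and 3. Its groups were separate, with a log2 fold change of -0.53 ± 0.51 (SE, edgeR, adjusted p = 0.353). Olfr693, a class II OR that lies next after the class I cluster on chromosome 7, had 280, 366 and 299 in the dorsal libraries against 368, 388 and 451 in the ventral libraries, and a log2 fold change of -0.36 ± 0.53. Olfr239 is 98.1% identical in protein to Olfr55, which was called ventral, so the reads of both are uncertain.

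The 8 called ORs with the smallest absolute log2 fold change were Olfr821, Olfr154 and Olfr1111 on the dorsal side and Olfr25, Olfr96, Olfr857, Olfr832 and Olfr1216 on the ventral side. Olfr821 had 228, 139 and 213 normalized counts in dorsal libraries 1, 2 and 3, against 71.2, 76.2 and 87.4 in ventral libraries 1, 2 and 3, a log2 fold change of 1.28 ± 0.54 (SE, edgeR, adjusted p = 0.0471). Olfr25 had 67.3, 91.4 and 86.4 in the dorsal libraries against 218, 174 and 193 in the ventral libraries, a log2 fold change of -1.26 ± 0.54 (adjusted p = 0.0497). In both, the libraries of the groups did not overlap, but the calls of these 8 were each lost in 5 to 8 of the 16 alternative fits. Olfr821 had a log2 fold change of 0.68 without TMM (adjusted p = 0.236) and 0.86 with size factors over all genes (0.201), and Olfr25 had -1.003 in DESeq2 (0.110). Olfr550, the weakest dorsal class I OR, had 272, 132 and 367 in the dorsal libraries against 59.2, 91.8 and 89.3 in the ventral libraries, and a log2 fold change of 1.6 ± 0.60. It was singled out after its values were seen.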

How the data were processed

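Total RNA of dorsal and ventral olfactory epithelium was sequenced, 3 libraries each. The protocol in the labels of these libraries describes the immunoprecipitation instead, and the description in the methods of the study is followed. Reads of 50 bases were aligned by the authors with STAR, and expected counts from RSEM were deposited as whole numbers, on GRCm38 with OR models that include UTRs. They also deposited a mean signal per group, counts divided by DESeq size factors over all genes and averaged, from which the size factors of the libraries were recovered. Their columns of log2 fold change, log2 CPM, likelihood ratio, p-value, FDR and DESeq fold change were not used.

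Counts were tested with edgeR 4.0.16 in R 4.3.3 (glmQLFit, robust, and glmQLFTest) with TMM over the ORs, no filter and the replicate number as a block. The block and the absence of a filter follow the R code of the study, which took the number as the subject but used the likelihood ratio test over all genes without TMM factors. ORs passed at an adjusted p under 0.05. The SE is the log2 fold change divided by the square root of F and restates the test. A normalized count is the count over the library's TMM-scaled total, brought to the mean such total. The fit was also run on simulated counts in which a minority of ORs changed, evenly in both directions, with the same dispersion for every OR. Most ORs differed in the real libraries, so that run does not test the scaling or the unequal spread here. Positions, transcripts and proteins came from GENCODE M21 on GRCm38, which placed 1082 of the 1087 ORs, and RefSeq gave a MOR family number for 1064. Class I is the cluster on chromosome 7 alone. Olfr503 and Olfr504 have family numbers of class I (34 and 40) but lie outside it and count as class II. Both were called in neither tissue. Proteins of 1074 ORs were translated from the annotation, in place of the planned RefSeq proteins, and aligned with Biopython 1.88. The members, lists and naming rule were chosen with earlier results of these data known. The rule named the 10 strongest called ORs on each side with a mean of at least 50 counts and separate groups. It also named the 8 most counted ORs of each tissue, class I ORs not called dorsal and the 8 most counted uncalled ORs. A list of 27 known receptors was added. The 6 most alike opposite pairs were taken up to 95% identity, with a mean of at least 20 counts for each OR. The sharpest neighbours of mixed clusters with at least 20 ORs and the 8 smallest called differences completed the rule. Of per-sample columns, 0 were left unmapped. Alternatives were 3 other scalings, DESeq2, the likelihood ratio test, no block, a filter at a mean of 10 counts, and leaving out replicates or single libraries.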

Additional observations from a re-analysis of the deposited data

How the results depend on the processing

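The code of the study takes the replicate number as the subject, but same-numbered libraries did not deviate together. Deviations from the group means correlated at -0.31, -0.47 and -0.02 for same-numbered libraries, and with no replicate block there were 416 dorsal and 437 ventral ORs, of which 407 and 385 were shared with the blocked fit. No OR called in the blocked fit was called in the opposite direction in any of the 16 alternative fits, and 336 dorsal and 138 ventral calls held in all of the 15 fits without a count filter. Ventral calls depended on which libraries were used. They ranged from 201 to 410 without 1 replicate, all of them class II but for 1 without replicate 2 (201 to 409 class II ORs), and with no block were 249 and 267 without ventral libraries 1 and 2 and 521 without dorsal library 2. Class I ORs called ventral were 1 without TMM, with size factors over all genes, in the likelihood ratio test, with no replicate block, without replicate 2 and without dorsal library 2, and 0 in the main fit. Opposite paralogue pairs numbered 35 in the main fit, 5 to 41 without 1 replicate, and with no block 22 and 59 without dorsal libraries 1 and 2, and 16, 19 and 20 without ventral libraries 1, 2 and 3.

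Olfr571 changed sign without TMM (-0.33), with size factors over all genes (-0.15) and without replicate 3 (-0.00305, against 0.67 without replicate 2). Olfr288, with few counts, changed sign with no replicate block (-0.24), without replicate 2 (-0.56, against 5.60 without replicate 3), and with no block without dorsal library 2 (-0.78), ventral library 1 (-0.83) or ventral library 2 (-0.73). Of the 94 called ORs that were named, 61 kept their call in every alternative fit and 33 lost it in at least 1. With 3 libraries a group and a biological coefficient of variation of 0.485, small differences could not be resolved. The cause of these changes was not tested.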
